A study of Mus musculus with 4 samples.

Results

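Pyroptosis and necroptosis are lytic forms of programmed cell death, and 10 genes that carry them out were examined in mouse kidneys injured by ischemia-reperfusion (I/R). The genes were taken by their symbols from the 54078 features of the deposited table. They are Nlrp3, Pycard, Casp1, Casp4, Gsdmd and Il18 of the pyroptosis pathway, Ripk1, Ripk3 and Mlkl of the necroptosis pathway, and Casp8, which links both. All 10 symbols were found once each, and all 10 passed the filter on low values.

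RNA-sequencing was done on the kidneys of male mice at day 3 after both renal pedicles had been clamped for 30 min. The WT mice carried floxed Apela alleles without Cre (Apela flox/flox). Their ApelaKsp KO littermates carried the same alleles with Cre driven by the Ksp-cadherin promoter, which is active in renal tubular epithelial cells, so that cells outside the tubules keep Apela, the gene of the peptide elabela. All mice were injured, adult and age-matched. Each genotype was measured in 2 libraries, called WT pool 1, WT pool 2, KO pool 1 and KO pool 2 below, each made from RNA pooled from 3 mice. Since no uninjured kidney was sequenced, the values do not show how these genes respond to the injury itself. Only mice alive at that day could be sampled. The labels give the strain as C57BL/6 x 129S4/SvJae, while the methods name C57BL/6 for both parent lines.

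Pyroptosis starts when a sensor such as NLRP3 detects cell damage and, through the adaptor ASC (encoded by Pycard), assembles the inflammasome that activates caspase-1. Caspase-1 matures the cytokines interleukin-1 beta and interleukin-18, and it cleaves gasdermin D, whose free end forms pores in the plasma membrane. Mouse caspase-11, encoded by Casp4, binds bacterial lipopolysaccharide in the cytosol and cleaves gasdermin D without that sensor. Necroptosis instead runs from death receptors through the kinases RIPK1 and RIPK3 to MLKL, which breaks the plasma membrane when phosphorylated, and caspase-8 blocks this route by cleaving the kinases. Most of these steps are controlled by cleavage, assembly or phosphorylation of the proteins, which mRNA levels do not report.

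Reads on genes numbered 16045724 to 16927742 per library. Expression is given as FPKM, that is, fragments scaled by gene length and library size. Apela had FPKM values of 5.27 and 4.57 in WT against 0.536 and 0.245 in KO pools, in accordance with the labels. The accompanying text of the series also names adipose tissue, but Umod and Kap, which mark the thick ascending limb and the proximal tubule of the kidney, had FPKM values of at least 788 and 4387 in every library, while the brown fat gene Ucp1 had 0 reads in all 4 and Adipoq had 6 reads in KO pool 2 and 0 in the others. With limma and Benjamini-Hochberg adjustment 0 of 15414 genes tested (0%) differed between KO and WT pools at an adjusted p-value under 0.05, and limma's voom weights on the reads also gave 0. Before adjustment, 974 genes (6.32%) in the first fit and 970 in the second had a p below 0.05. With 2 pools on each side, the smallest two-sided p that exact permutation allows is 0.33, so the value of every pool is given for each gene.

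None of the 10 genes differed between the genotypes past the threshold. The targeted gene Apela did not pass it either, with an adjusted p of 0.466 (limma, Benjamini-Hochberg), the smallest of all genes tested. Staying above the threshold therefore does not show that a gene was unchanged. The adjusted p-values of the 10 genes ranged from 0.785 to 0.975 (limma, Benjamini-Hochberg), and 0 of them had an unadjusted p under 0.05. The log2 fold changes of KO against WT, taken on FPKM + 0.5, ran from -0.58 for Gsdmd and Casp4 to 0.22 for Mlkl. The median was -0.10, with 6 genes lower and 4 higher in the KO pools, against a median of 0.01 over all genes tested. With the filter set at a mean FPKM of 1, which keeps 8 of them, 4 were lower and the median turned to 0.05, and it lay between -0.29 and -0.01 for all 10 when a pool was left out. In 3 genes, Gsdmd, Casp4 and Ripk1, both KO pools lay below both WT pools, a pattern held by 18.1% of all genes tested. Casp8 alone had KO values that both exceeded both WT values, a pattern of 19.7% of all genes. In 1 gene, Gsdmd, the difference between the genotypes was larger than the distance between the pools of either genotype on the same log2 scale, by 0.58 against 0.55 between the WT pools, as it was for 24.4% of all genes tested.

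**Figure D1:**
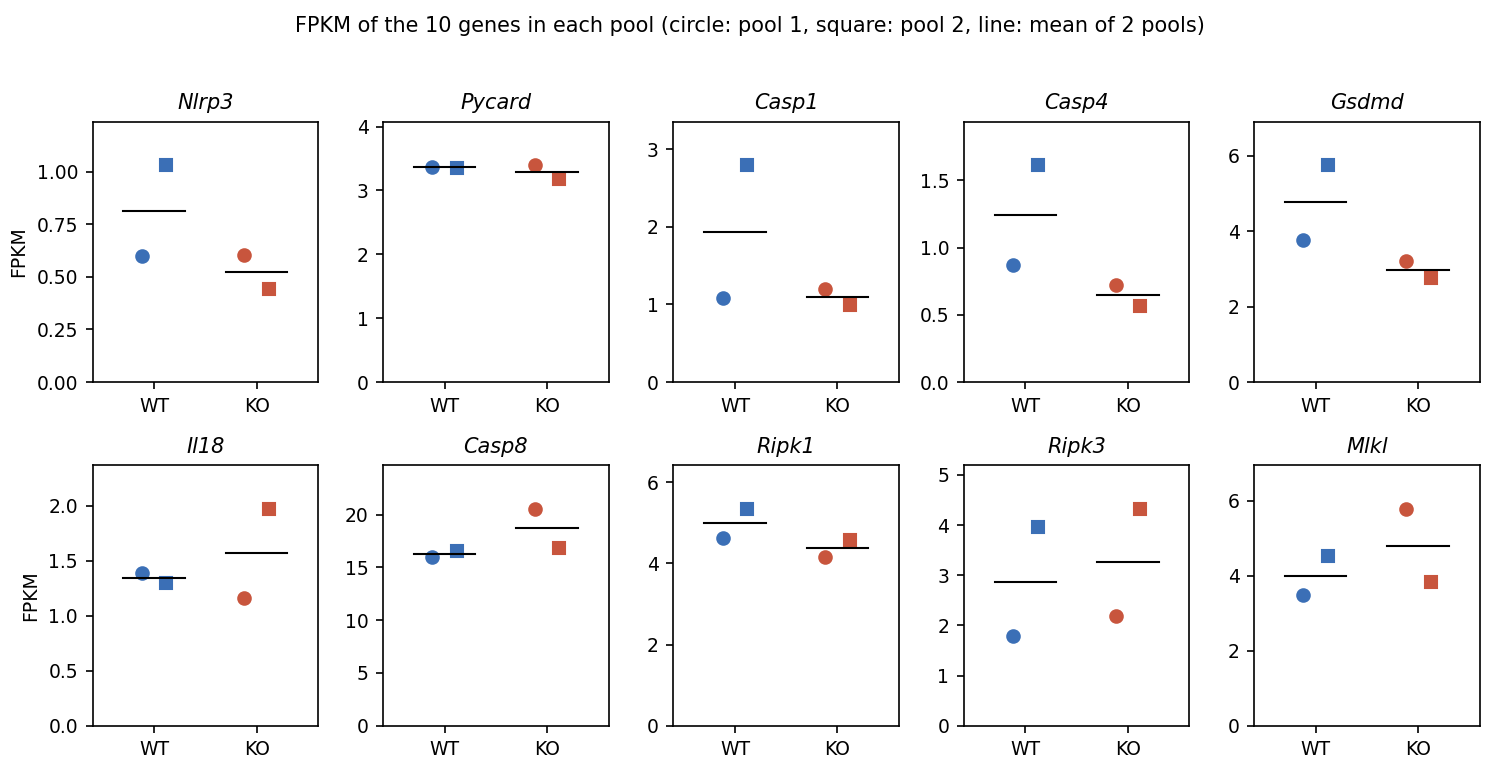
FPKM (y axis, from 0, on its own scale for each gene) of the 10 genes in the WT (blue) and KO (red) pools, with circles for pool 1, squares for pool 2 and a line at the mean of 2 pools. Nlrp3, Casp1, Casp4 and Gsdmd all have their highest value in WT pool 2, Pycard lies between 3.18 and 3.40 in all pools, and Ripk3 is higher in pool 2 of both genotypes.

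Gsdmd encodes the pore-forming protein of pyroptosis and lies on the plus strand of chromosome 15 of GRCm38 from 75862327 to 75867408. WT pools 1 and 2 had FPKM values of 3.77 and 5.75, KO pools 1 and 2 values of 3.19 and 2.75, from 106 to 235 reads. Both KO pools lay below both WT pools, and WT pool 2 stood above the other 3. The mean was 4.76 ± 1.40 (SD, n = 2 pools) for WT and 2.97 ± 0.317 for KO. For KO against WT, the difference came to -0.58 ± 0.22 (SE) in log2 units, with a 95% interval of -1.16 to 0.01 and a limma p of 0.785 after Benjamini-Hochberg adjustment, and Gsdmd ranked 1033 of the 15414 genes by unadjusted p. It was -0.30 without WT pool 2 and -0.85 without WT pool 1, so that the size of the difference depended on the WT pool used.

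Casp1 and Casp4 encode the caspases that cleave gasdermin D. They are neighbors on the plus strand of chromosome 9, with 1562 bases between the end of Casp1 (5298517 to 5307265) and the start of Casp4 (5308828 to 5336783). Casp1 had 1.08 and 2.80 FPKM in the WT pools against 1.20 and 0.987 in the KO pools. WT pool 2 was high and the other 3 pools were close to each other, so the groups overlapped. Its reads were 26 in WT pool 1 and 72 in WT pool 2, with exact Poisson 95% intervals of 17.0 to 38.1 and 56.3 to 90.7 that do not meet. These intervals cover counting error only. The distance between the WT pools was larger for Casp1 than for 96.4% of all genes tested, on the scale of log2(FPKM + 0.5). Casp1 differed by -0.52 ± 0.39 (SE) log2 units between the genotypes (limma, adjusted p = 0.832), and this value became 0.01 without WT pool 2 and -1.05 without WT pool 1.

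Casp4 had 0.872 and 1.61 FPKM in the WT pools against 0.725 and 0.564 in the KO pools, from 34 to 103 reads. Both KO pools were lower than both WT pools, and WT pool 2 was again the highest. The mean was 1.24 ± 0.524 (SD, n = 2) for WT and 0.645 ± 0.114 for KO, a difference of -0.58 ± 0.29 (SE) log2 units (limma, adjusted p = 0.797). It was -0.26 without WT pool 2 and -0.89 without WT pool 1. Several inbred substrains of the strain family named in the labels carry a Casp4 allele with a defective splice site, and an FPKM per gene does not tell alleles apart. Which alleles the pooled mice carried was not analysed here. Casp12, a related caspase and not 1 of the 10 genes, had 0.988 and 1.45 FPKM in the WT pools against 0.654 and 0.962 in the KO pools, also highest in WT pool 2 and without overlap.

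Nlrp3, the sensor, lies on the plus strand of chromosome 11 from 59541568 to 59566956 and had the lowest level of the 10 genes. The WT pools read 0.598 and 1.03 FPKM, the KO pools 0.604 and 0.440, from 29 to 72 reads. Outside WT pool 2 the pools of both genotypes had overlapping values. KO and WT differed by -0.35 ± 0.28 (SE) in log2 units (limma, adjusted p = 0.841), by -0.11 without WT pool 2 and by -0.59 without WT pool 1. Without WT pool 1, Gsdmd, Casp1 and Casp4 differed by -0.85, -1.05 and -0.89 log2 units. That setting leaves WT pool 2, the highest pool for these genes, alone in its group and assumes that it varies like the KO pools.

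The sequences before the RefSeq start sites of Casp1, Casp4 and Nlrp3 are shown because these pyroptosis genes had their highest value in WT pool 2, as did Gsdmd, for which no window was given. For Casp4 and Nlrp3, which each have 2 annotated starts, the window of the first is printed. All are from GRCm38.p6 on the plus strand, at chr9:5298267-5298516 for Casp1, chr9:5308599-5308827 for Casp4 and chr11:59541319-59541567 for Nlrp3. Capitals mark matches to the NF-κB consensus, and bases that the deposited table places within the gene were left off the end.
Casp1: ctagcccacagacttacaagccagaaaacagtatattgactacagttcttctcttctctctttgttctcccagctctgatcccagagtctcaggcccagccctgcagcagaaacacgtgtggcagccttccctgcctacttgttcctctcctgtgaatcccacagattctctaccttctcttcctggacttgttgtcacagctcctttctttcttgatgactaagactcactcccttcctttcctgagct
Casp4: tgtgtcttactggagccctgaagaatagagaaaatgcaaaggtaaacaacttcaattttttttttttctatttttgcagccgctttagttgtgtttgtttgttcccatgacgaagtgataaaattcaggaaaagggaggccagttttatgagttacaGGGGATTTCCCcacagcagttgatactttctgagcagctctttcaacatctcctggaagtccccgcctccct
Nlrp3: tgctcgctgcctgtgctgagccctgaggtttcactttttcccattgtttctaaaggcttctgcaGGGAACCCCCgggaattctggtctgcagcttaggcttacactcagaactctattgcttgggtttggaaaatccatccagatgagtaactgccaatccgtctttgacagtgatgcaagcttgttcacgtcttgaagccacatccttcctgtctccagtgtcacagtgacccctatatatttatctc

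Windows of 300 bases, from 250 before to 50 after a start site, were searched on both strands for the NF-κB consensus, for TTCNNNGAA, bound by STAT factors, for GAAANNGAA, bound by interferon regulatory factors, and for GAGGAA, the core bound by PU.1. Of the 10 genes, 9 matched RefSeq windows, 12 windows in all. The NF-κB consensus was found in the windows of Casp4 and Nlrp3, against 4.51% of all 32851 windows. In Casp4 overlapping matches ran from base -93 to -84 and from -92 to -83 before the start, and in Nlrp3 a match ran from -186 to -177. The window of the other Nlrp3 start, at 59542686, held no NF-κB match. GAAANNGAA was found in Ripk1 and Ripk3 (8.56% of all windows), TTCNNNGAA in Ripk1 (8.30%), partly overlapping the former, and GAGGAA in Casp1, Nlrp3 (at the other start, not printed), Pycard and Ripk1 (28.3%). The Casp1 window held none of the first 3 motifs. These matches describe the sequences, and binding was not measured.

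Pycard, which encodes the adaptor ASC, lies on the minus strand of chromosome 7 from 127989708 to 127993867. It had the narrowest spread of the 10 genes, with an FPKM of 3.37 and 3.35 in WT against 3.40 and 3.18 in KO pools. Its highest value was 1.07 times its lowest. In log2 units the KO pools differed by -0.03, with 95% limits of -0.35 and 0.29 (limma, adjusted p = 0.975). The high value of WT pool 2 seen in the sensor and the caspases was therefore not present in their adaptor.

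Il18 encodes the cytokine interleukin-18, which tubular epithelial cells also produce, and lies on the plus strand of chromosome 9 from 50554827 to 50581840. In FPKM, the WT pools had 1.39 and 1.30 and the KO pools 1.16 and 1.97, which overlapped, with KO pool 2 the highest. It rested on 20 to 33 reads, the fewest of the 10 genes, and the exact Poisson 95% intervals of the lowest (12.2 to 30.9) and the highest (22.7 to 46.3) overlapped. Between the genotypes Il18 differed by 0.14 ± 0.25 (SE) log2 units (limma, adjusted p = 0.934), by -0.15 without KO pool 2 and by 0.42 without KO pool 1.

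Casp8, which encodes the caspase that starts death-receptor apoptosis and holds necroptosis in check, had the highest level of the 10 genes. It lies on the plus strand of chromosome 1 from 58795374 to 58847503. FPKM values were 16.0 and 16.5 for WT and 20.6 and 16.8 for KO, from 742 to 995 reads. The KO values were both higher than the WT values, KO pool 2 by little and KO pool 1 by more. The mean was 16.2 ± 0.394 (SD, n = 2) for WT and 18.7 ± 2.63 for KO, and the difference of 0.19 ± 0.14 (SE) log2 units (limma, adjusted p = 0.828) was 0.05 without KO pool 1 and 0.33 without KO pool 2. The pseudogene Gm20257 holds 5.05% of the 50-base windows of the longest coding Casp8 transcript and had an FPKM of at most 1.99, so reads could be split between them.

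Ripk1 encodes the kinase that death receptors recruit, on the plus strand of chromosome 13 from 34002363 to 34037147. WT pools 1 and 2 had FPKM values of 4.62 and 5.35, KO pools 1 and 2 values of 4.16 and 4.59. The KO pools were both lower, though KO pool 2 almost met WT pool 1. With 580 to 768 reads, Ripk1 differed by -0.17 ± 0.13 (SE) log2 units (limma, adjusted p = 0.840), by -0.074 without WT pool 2 and by -0.27 without WT pool 1. The pseudogene Gm17084, on the same strand within Ripk1, holds 7.19% of the 50-base windows of its longest coding transcript and was listed with 0 reads in all 4 pools. Exons of the antisense gene Serpinb6a overlap those of Ripk1 by 241 bases, and the library preparation described in the labels does not state that strand was kept.

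Ripk3 encodes the kinase that activates MLKL and lies on the minus strand of chromosome 14 from 55784995 to 55788865. The WT pools read 1.79 and 3.96 FPKM, the KO pools 2.19 and 4.33. Here the pools of the same number resembled each other more than the pools of the same genotype, with pool 2 at 2.21 times pool 1 in WT and 1.97 times in KO mice. The distance between the WT pools was larger than for 95.4% of all genes tested. KO against WT, Ripk3 differed by 0.17 log2 units with the widest 95% limits of the 10 genes, -0.98 and 1.33 (limma, adjusted p = 0.954). It turned to -0.31 without WT pool 1 and to -0.25 without KO pool 2, and was 0.65 without WT pool 2 and 0.59 without KO pool 1.

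Mlkl, which encodes the executioner of necroptosis, lies on the minus strand of chromosome 8 from 111311797 to 111338177. In FPKM, the WT pools had 3.49 and 4.52 and the KO pools 5.79 and 3.82, which overlapped, with KO pool 1 the highest. Mlkl differed by 0.22 ± 0.24 (SE) log2 units (limma, adjusted p = 0.877), by -0.049 without KO pool 1 and by 0.49 without KO pool 2. Ripk3 and Mlkl, which act in sequence, were thus highest in different KO pools.

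**Figure D2:**
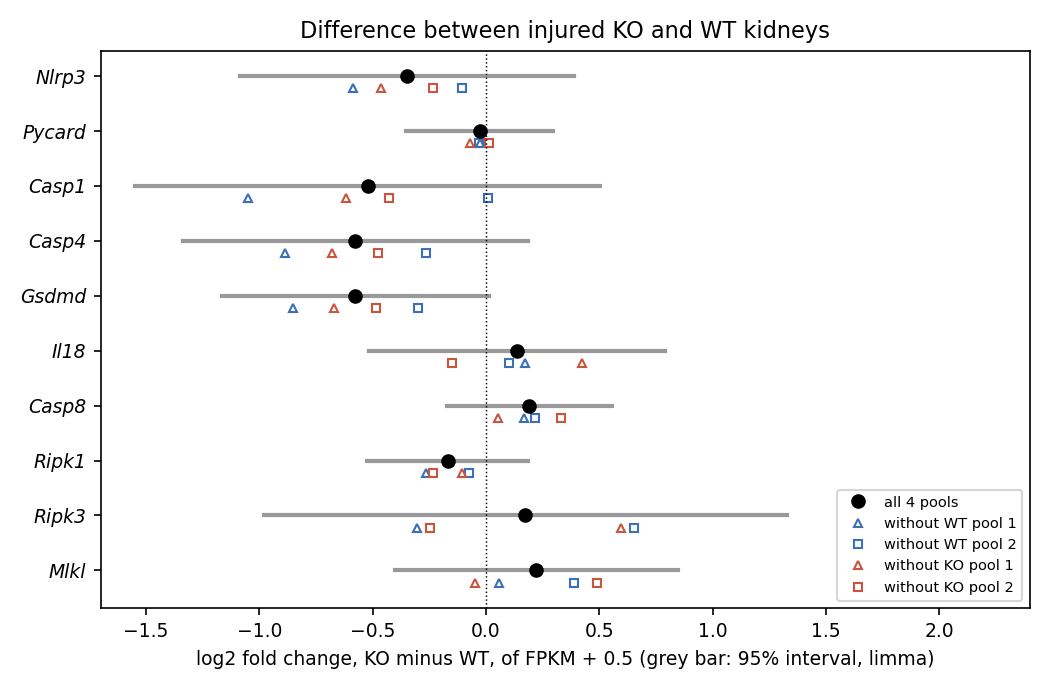
Log2 fold change of KO against WT on FPKM + 0.5 (x axis) for each of the 10 genes (y axis), with black points for all 4 pools, grey bars for the 95% interval from limma, and open symbols for the value with the named pool left out. All 10 intervals include 0, and the points of Casp1, Il18, Pycard, Ripk3 and Mlkl cross 0 when 1 pool is left out.

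Per deposited gene length, Casp8 with a mean FPKM of 17.5 over the 4 pools stood apart from the next gene, its lowest pool at 16.0 being above the highest Ripk1 pool at 5.35. Below it came Ripk1 (4.68), Mlkl (4.40), Gsdmd (3.86), Pycard (3.32), Ripk3 (3.07), Casp1 (1.52), Il18 (1.45), Casp4 (0.944) and Nlrp3 (0.669), and in each of these neighboring pairs the ranges over the 4 pools overlapped. The deposited lengths count the exons of all transcripts, which makes the order depend on the gene models. For Casp4 that length is 3710 bases, while its longest coding transcript in GENCODE M21 has 1435. Divided by the longest coding transcript instead, Casp4 would have a mean of 2.44 and stand above Casp1 and Il18.

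Across the 10 genes, 5 had their highest value in WT pool 2 (Gsdmd, Casp1, Casp4, Nlrp3 and Ripk1), 3 in KO pool 1, 2 in KO pool 2 and 0 in WT pool 1. Of all genes tested 29.1% were highest in WT pool 2. Among the marker lists, 13 of 15 interferon-induced genes were highest in WT pool 2, with a summed FPKM of 124 and 185 in WT against 71.8 and 50.6 in KO pools, the order of pools that Gsdmd and Casp4 also had. In the wider lists taken up further on, 10 of 15 inflammasome family and 17 of 28 necroptosis genes were highest there. The 14 macrophage genes, which include Adgre1, Csf1r and the C1q genes, had a summed FPKM of 212 and 501 in WT against 268 and 238 in KO pools, and 11 of the 13 that were tested were highest in WT pool 2. Adgre1, which encodes F4/80, had 3.09 and 11.2 in WT against 3.89 and 2.43 in KO pools. In whole-kidney RNA more cells of a type and more RNA per cell cannot be told apart, and the parts of macrophages and of interferon signalling in the values of WT pool 2 were not tested.

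The 10 neutrophil genes had a summed FPKM of 11.2 and 22.9 in WT against 12.0 and 29.3 in KO pools, that is, higher in pool 2 of both genotypes as Ripk3 was. All 5 that were tested, S100a8, S100a9, Retnlg, Cxcr2 and Csf3r, had this order, which 24.4% of all genes tested shared, though Retnlg differed little between the WT pools (12 and 13 reads). Genes of other lists had it too, among them 6 of 9 endothelial and 9 of 18 mitochondrial apoptosis genes, as did Ripk1 among the 10. Of the neutrophil genes that were not tested, Ly6g, Mpo and Camp had 0 reads in all 4 pools. Ngp had 3 reads in KO pool 2 and 0 in the others, and Ltf had 4 to 6 per pool. The part of neutrophils in the values of Ripk3 was not tested. Genes of T and B cells had a summed FPKM of 1.66 and 2.79 in WT against 0.926 and 0.943 in KO pools, and 1 of 9 was tested. The proximal tubule genes had a summed FPKM of 12242 and 6826 in WT against 7907 and 12076 in KO pools, most of it from Kap. Without Kap the other 11 summed to 3265, 2439, 1870 and 2759 in the same order of pools, which was lowest in KO pool 1.

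**Figure D3:**
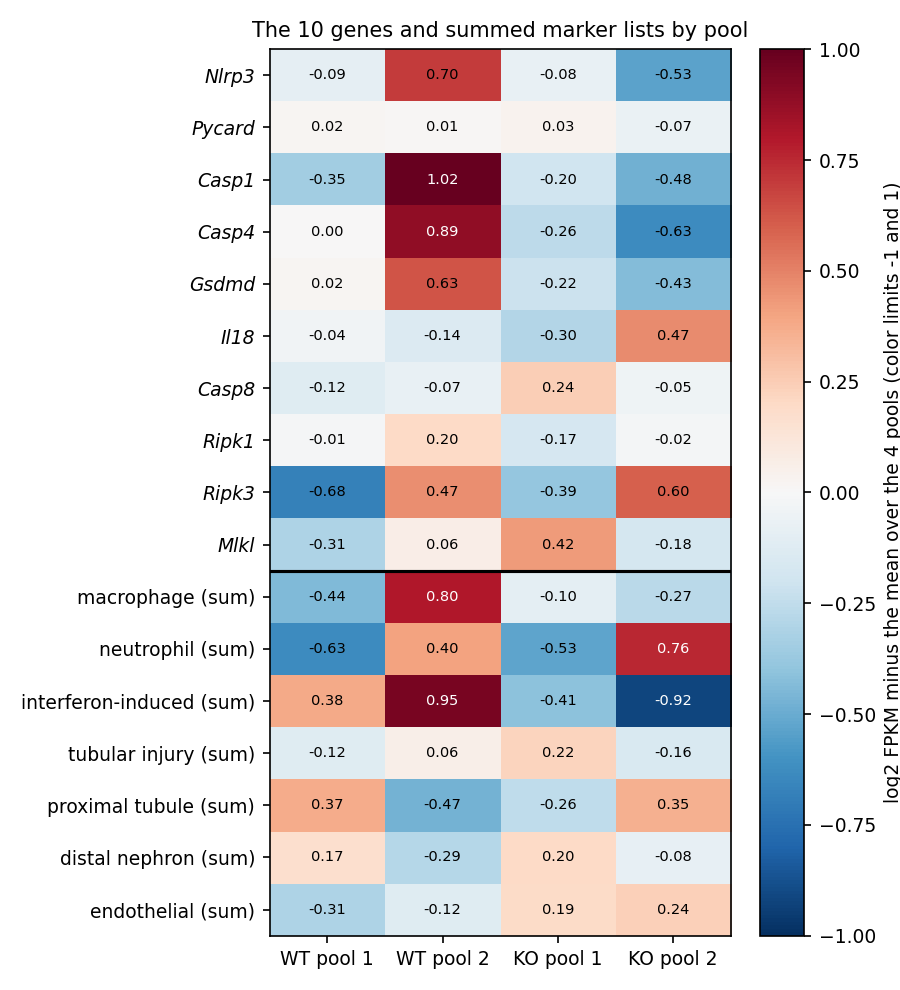
Log2 FPKM minus its mean over the 4 pools (color and number) for the 10 genes and, under the line, for the summed FPKM of marker lists, with 1 column per pool. WT pool 2 is the highest for Casp1 (1.02), Casp4 (0.89), Nlrp3 (0.70) and Gsdmd (0.63), for the macrophage sum (0.80) and for the interferon-induced sum (0.95), while Ripk3 and the neutrophil sum are high in both second pools.

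The wider inflammasome, gasdermin and interleukin-1 family was examined through 24 further genes, of which 15 were tested. Of these 0 passed the threshold in either direction. The median log2 fold change was -0.04, and it lay between -0.31 and 0.085 when a pool was left out. Among the 15, 4 had both KO pools below both WT pools and 1 had them above (18.1% and 19.7% of all genes tested). The natural inhibitors of both cytokine arms were among the 4. Il18bp, whose product neutralizes interleukin-18, had 2.98 and 3.96 FPKM in the WT pools against 2.07 and 1.55 in the KO pools, a difference of -0.78 ± 0.21 (SE) log2 units with an adjusted limma p of 0.757. Il1rn, which encodes the interleukin-1 receptor antagonist, had 0.944 and 2.17 in WT against 0.756 and 0.467 in KO pools. The cytokine Il1b itself overlapped, with 0.555 and 1.01 against 0.564 and 0.840.

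Txnip, whose product can bind NLRP3, alone in this family had KO values that both exceeded both WT values. FPKM values were 115 and 91.0 for WT and 260 and 142 for KO, a difference of 0.91 ± 0.33 (SE) log2 units (limma, adjusted p = 0.785). Nek7, whose product NLRP3 requires, had 15.7 and 12.0 in WT against 18.6 and 15.0 in KO pools. Gsdme, which encodes another gasdermin, had 1.89 and 1.44 against 2.14 and 1.86. Ninj1, which encodes the protein that ruptures the membrane late in lysis, was abundant and close in all pools, with 98.3 and 101 against 111 and 99.6. Nlrp1a, Nlrp1b, Aim2, Mefv, Naip6, Il1a, Il18r1 and Il18rap stayed under the filter and Gsdmc had 0 reads, so they were not tested.

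Of 29 further genes of necroptosis and death receptor signalling 28 were tested, with 0 past the threshold in either direction and a median log2 fold change of -0.09. The median lay between -0.16 and -0.0017 when a pool was left out. Both KO pools were below both WT pools in 7 and above in 4, beside 18.1% and 19.7% of all genes tested. Zbp1, which encodes a nucleic acid sensor that recruits RIPK3, had the widest difference of this list. WT pools 1 and 2 had FPKM values of 1.22 and 3.06, KO pools 1 and 2 values of 0.627 and 0.401, from 23 to 186 reads, and the genotypes differed by -1.30 ± 0.40 (SE) log2 units (limma, adjusted p = 0.785). Zbp1 is itself induced by interferon. On the list of 16 interferon-induced genes, the 15 tested all had both KO pools below both WT pools. The part of interferon signalling in the values of Zbp1 was not tested.

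Tnfaip3, which encodes the ubiquitin-editing enzyme A20 that restrains RIPK signalling, had 2.63 and 4.16 FPKM in the WT pools against 2.42 and 1.84 in the KO pools. Fadd, the adaptor of caspase-8, had 4.38 and 4.72 against 3.69 and 4.10, and both genes were without overlap. Cflar, which encodes the caspase-8 regulator FLIP, had 15.4 and 14.0 in WT against 16.7 and 15.9 in KO pools, all KO values being higher. The death receptor gene Fas had 4.25 and 4.42 against 5.48 and 5.51, Ikbkg, which encodes the NF-κB regulator NEMO, 6.68 and 6.32 against 8.31 and 9.71, and Sharpin, of the linear ubiquitin ligase complex, 11.1 and 11.0 against 12.6 and 13.0. These were higher in both KO pools, with adjusted p-values from 0.785 to 0.839 for the 4 genes (limma, Benjamini-Hochberg).

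All 18 genes of the mitochondrial apoptosis list were tested, and 0 passed the threshold in either direction. Their median log2 fold change was 0.01, and without overlap the KO pools were higher for 4 genes and lower for 2, beside 19.7% and 18.1% of all genes tested. Bcl2l1, which encodes the survival protein BCL-XL, had 38.6 and 39.3 FPKM in the WT pools against 52.1 and 55.9 in the KO pools. Its difference of 0.46 in log2 units was several times its standard error of 0.11, with an adjusted p of 0.742 (limma, Benjamini-Hochberg).

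**Figure D4:**
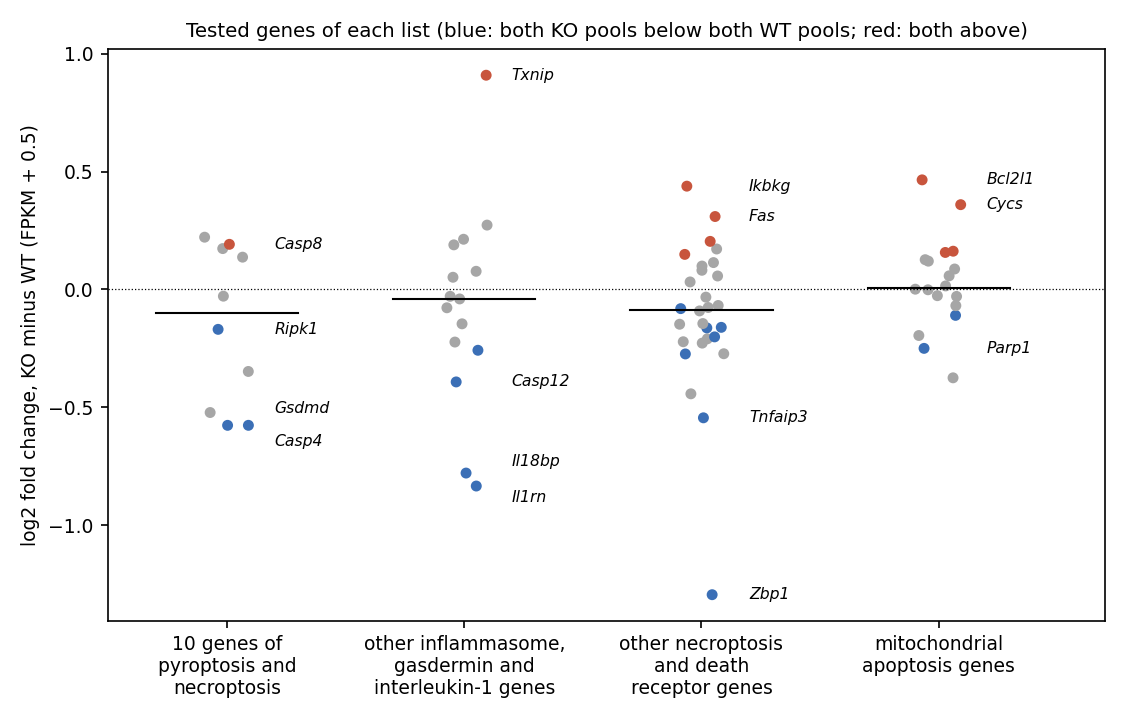
Log2 fold change of KO against WT on FPKM + 0.5 (y axis) for the tested genes of the 10 members and of 3 wider lists (x axis), with blue for genes whose KO pools both lie below both WT pools, red for those above, grey for overlap, and a line at each median. The medians lie between -0.10 and 0.01, and Zbp1 (-1.30), Il1rn (-0.83) and Txnip (0.91) are farthest from 0.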

How the data were processed

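The series holds 4 mouse kidney libraries, and the authors deposited 1 table of FPKM (fragments per length of gene and size of library) with gene positions and lengths. Per the labels, poly-A RNA was sequenced. The submitters' processing notes name HISAT2 2.0.5 and the builds mm10 and GRCm38.p6, and the counting tool is not given in the sources used here. Multiplied by gene length and by a scaling total for each library, 100% of the values above 0 came within 0.01 of a whole number of reads. These reads give the depth. The totals behind the FPKM were 0.968 to 1.07 times the reads on genes, so the values carry a scaling between libraries. The gene positions matched GENCODE M21 for 97.1% of 53620 shared genes. Replicates differed by more than counting noise (chi-square per gene of 31.5 in WT and 24.5 in KO pools). Whether pools of the same genotype came from separate operations is not stated, so p-values measure only the spread between these pools.

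On the scale of log2(FPKM + 0.5), KO and WT pools were compared in R 4.3.3 by limma 3.58.1 (trend on, two-sided, no covariates, all 4 pools), keeping genes whose mean FPKM reached 0.5. P-values were adjusted by Benjamini-Hochberg over all 15414 genes, and the threshold was that of the study, an adjusted p under 0.05 whatever the fold. The pseudocount makes the folds of low genes look smaller than they are. Tested on simulated data, the fit gave the right direction for the changed genes. Its share of false calls was above the threshold, while that of voom was under it. The simulation gave every gene the same spread beyond counting noise. It changed only genes with more reads than Casp1, Casp4, Nlrp3 and Il18 had on average. It therefore does not tell how often changes in such genes would be found. Other steps used Python 3.11.15 with pandas 2.3.3. The genes, the lists and the rule for naming (the 10 genes, up to 5 genes per list with the lowest unadjusted p, and direct partners of the 10) were chosen with earlier results of these data known. Alternatives were other pseudocounts, filters, normalizations and weights, no trend, a replicate block and each pool left out.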

Additional observations from a re-analysis of the deposited data

How the results depend on the processing

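None of the 13 alternatives, including voom weights on the recovered reads, moved any of the 10 genes past an adjusted p of 0.05, and the number of genes past it was 0 in all of them (limma, Benjamini-Hochberg), while between 687 and 1720 genes were under 0.05 before adjustment. The rescaling to reads on genes was added after the data were seen. Leaving out each pool in turn gave a median of the 10 genes from -0.29 to -0.01, and reversed Casp1 (range -1.05 to 0.0078), Pycard (-0.071 to 0.014), Il18 (-0.15 to 0.42), Ripk3 (-0.31 to 0.65) and Mlkl (-0.049 to 0.49). No other alternative reversed a gene, but with a mean FPKM of at least 1, which leaves out Casp4 and Nlrp3, the median was 0.05. Among the wider lists, leaving out a pool gave medians from -0.31 to 0.085 for the inflammasome family, -1.21 to 0.068 for macrophage, -0.40 to 0.64 for neutrophil, -0.077 to 0.086 for mitochondrial apoptosis, -0.10 to 0.40 for distal nephron and -0.15 to 0.23 for tubular injury genes. The mitochondrial apoptosis median was -0.058 with the rescaling, and the tubular injury median -0.014 with quantile normalization. The cause was not tested. Whether pools of the same number shared more than that number is not stated. Their deviations from the mean of their genotype had a correlation of -0.00166 across all genes tested. A batch shared by same-numbered pools was not tested for single genes. The fit with a replicate block called 0 genes (932 under 0.05 before adjustment), and Ripk3 had an unadjusted p of 0.308 against 0.710 in limma. Nlrp3, Casp1 and Il18 had the fewest reads of the 10 genes over the 4 pools, 20 to 72 per pool, which limits the precision of their values.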
